A study of Abies pinsapo with 12 samples.

Results

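Needles of adult Spanish fir (Abies pinsapo, a drought-sensitive conifer of southern Spain) were compared between thinned stands with and without a shading mesh in August 2016. The 2 unshaded libraries came from trees in plots where tree density had been lowered in 2004 ("Thinning"). The 2 shaded libraries came from trees of the thinned plot that stood under a mesh, which gave them about the light of an unthinned stand ("Thinning and Shading"). The comparison thus sets more light against less light at the same stand density. These 4 libraries, chosen by treatment and month, are part of 12. The others are 2 libraries of unthinned control trees from August 2016, and 2 libraries from each of the 3 treatments from May 2017. Each treatment had 3 plots of 100 m2. The labels give no number of trees and do not tell whether replicate libraries stem from different trees or plots, so every p-value here measures a spread between libraries that may be technical. The labels call all samples fir needles, although the extraction protocol speaks of pine roots. No needle markers could be checked, since the table gives assembly identifiers without gene names.

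Leaves sense light both as energy and as a signal. In plants generally, sun leaves invest more in carbon fixation and in protection from excess light, and shade leaves invest more in the antenna proteins that capture light. Phytochromes, photoreceptors that read the ratio of red to far-red light, tell a plant of neighbours and set off growth responses to shade. Whether the mesh changed that ratio is not given in the labels.

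Values are scaled TPM: a length-corrected share of the library (TPM) multiplied by 1 factor per library. Of 329801 transcripts in the table, 171434 were at 0 in all 4 libraries, and 14186 reached 10 or more in at least 2 of them and were tested. Those tested held 84.6% and 83.8% of the summed value in the unshaded libraries, against 83.9% and 83.3% in the shaded ones. TPM keeps no sequencing depth, so depth is unknown. The libraries were alike in overall make-up. The number of transcripts that reached 10 ran from 13299 to 13611 in unshaded and from 13427 to 13796 in shaded libraries. The 10 most abundant transcripts held 6.05% and 5.42% of the unshaded libraries, against 5.30% and 5.14% of the shaded ones. The groups do not overlap in that share, but with 2 libraries against 2 the smallest two-sided p of an exact permutation test is 0.333, so that test cannot set the groups apart. In bulk needles, fewer cells of a type and less RNA per cell cannot be told apart.

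No transcript was called between unshaded and shaded thinned trees in August. With limma on log2(scaled TPM + 1), fitted to the 6 August libraries, 0 of 14186 transcripts (0% in either direction) passed an adjusted p of 0.05, and the smallest adjusted p was 0.156. At an unadjusted p under 0.05 there were 1555 transcripts (11%), 896 higher (6.32%) and 659 lower (4.65%) without shade. A fit to the 4 libraries alone also gave 0 calls (smallest adjusted p 0.141, limma), and so did a fit to all 12 libraries (0.059). Calls appeared under 3 other choices. There were 7 when the spread was moderated without its trend on level, 4 when the filter was taken over all 12 libraries, and 2 when control August replicate 1 was left out.

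Unshaded and shaded libraries lay little farther apart than replicates did. The root mean square difference between the unshaded and the shaded libraries was 0.783, 0.669, 0.721 and 0.758 log2 units over the 4 possible pairs. Between replicates it was 0.660 in unshaded, 0.676 in shaded and 0.657 in control trees. Unshaded replicate 1 lay about as near to shaded replicate 2 (0.669) as to its own replicate. Distances to control libraries overlapped these and reached higher, at 0.766 to 0.857 for unshaded trees and 0.714 to 0.863 for shaded trees. Across the same transcripts, 8.76% to 10.3% differed 2-fold or more between an unshaded and a shaded library, against 7.47% between the replicates of each of these groups and 8.86% between the control replicates. On the same 14186 transcripts and in the same fit, thinning against control gave 28 calls (0.197%), and thinning plus shading against control gave 0 calls (0%, smallest adjusted p 0.0591, limma), with 2578 (18.2%) at an unadjusted p under 0.05. These 3 comparisons share libraries.

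**Figure D1:**
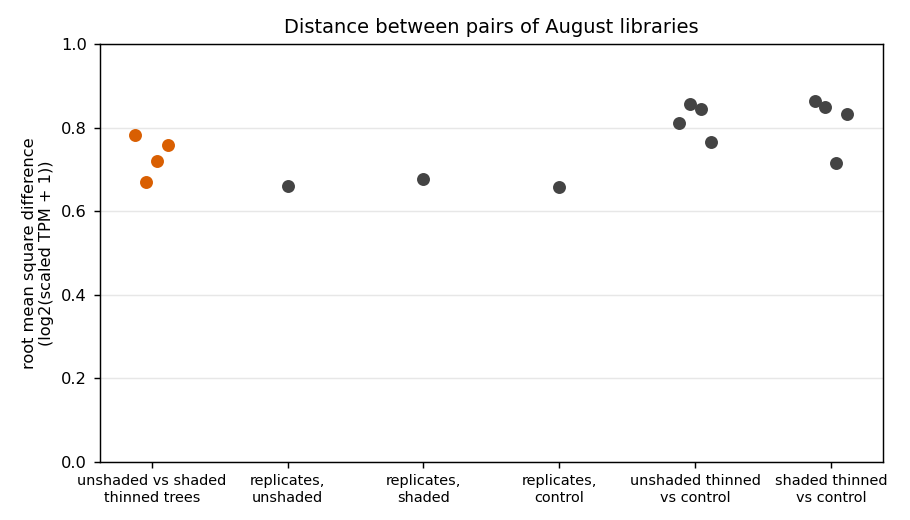
Root mean square difference over 14186 transcripts, in log2(scaled TPM + 1), for each pair of August libraries (1 point per pair). The 4 pairs of an unshaded and a shaded thinned library lie between 0.669 and 0.783, with the lowest among the replicate pairs (0.657 to 0.676).

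The size of effect that these data allow differed widely between transcripts. The 95% confidence interval of a transcript's difference, before adjustment for the number tested, had a median half-width of 0.592 log2 units, or 1.51-fold to either side. For 8562 transcripts (60.4%) the whole interval lay within 2-fold, and for 12878 (90.8%) it lay within 4-fold. The interval of 13654 (96.2%) lay within 8-fold. A lone transcript would have needed an unadjusted p of 3.52e-06 to be called, which for a transcript of median spread is a difference of 4.2 log2 units, or 18.4-fold. The measured differences had a 5th percentile of -0.801 log2 units, a median of -0.0238 and a 95th percentile of 0.764.

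Abundant transcripts were not measured more tightly. The median half-width was 0.608 for transcripts with a mean under 20 scaled TPM over the 4 libraries, 0.547 from 20 to 50, 0.612 from 50 to 100, 0.639 from 100 to 500 and 0.669 at 500 and over. The share with an interval within 2-fold was 65.5% between 20 and 50 and 44.4% among the 160 transcripts at 500 and over. The root mean square difference between the treatments was also largest in those 160, at 0.872 log2 units against 0.562 over all transcripts tested.

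**Figure D2:**
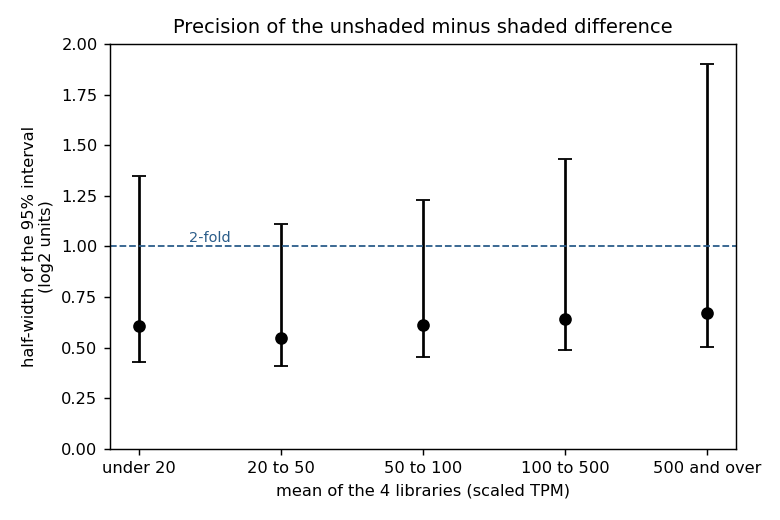
Half-width of the 95% interval of the unshaded minus shaded difference (log2 units), by mean level over the 4 libraries (scaled TPM). Points are medians, and bars run from the 10th to the 90th percentile of transcripts. Medians lie between 0.547 and 0.669, below the dashed line at 2-fold, and the upper ends lie between 1.11 and 1.90, above it.

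Transcripts that stood 2-fold or more apart with no overlap between the groups were about as many in each direction when all 4 libraries were used. Of the 725 (5.11%), 360 were higher (2.54%) and 365 lower (2.57%) without shade, in 291 and 308 components of the assembly. A component is a group of transcripts that share an assembly graph, often copies or fragments of 1 gene. Regardless of size, both libraries of 1 group lay beyond both of the other in 5925 transcripts (41.8%), 2998 higher (21.1%) and 2927 lower (20.6%). With 2 libraries against 2, labels placed at random give such a split with a probability of 0.333. The 360 higher transcripts had a median of 32.2 scaled TPM in unshaded, 11.6 in shaded and 20.6 in control trees. The 365 lower ones had a median of 9.58 in unshaded, 26.7 in shaded and 23.4 in control trees. The higher list held 6.16% and 4.48% of the summed value of the unshaded libraries, against 2.02% and 1.80% of the shaded ones. The lower list held 2.02% and 2.42% in unshaded and 5.91% and 6.04% in shaded trees. At 4-fold or more, 61 were higher and 62 lower without overlap, and at 16-fold or more 12 and 16. No transcript in these lists was called, and the count of 725 was 356 with a pseudocount of 8. The balance depended on the libraries: there were 412 higher and 700 lower without unshaded replicate 1, 584 and 511 without unshaded replicate 2, 583 and 476 without shaded replicate 1, and 512 and 639 without shaded replicate 2. With 1 library left in a group, no overlap is easier to reach, so those totals are not the same measure as 725. With the filter over 12 libraries there were 507 higher and 649 lower.

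**Figure D3:**
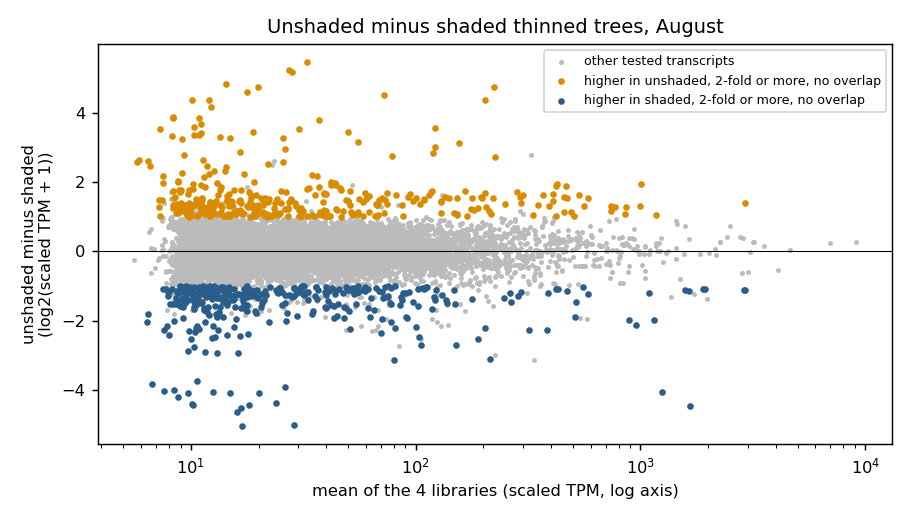
Unshaded minus shaded difference (log2(scaled TPM + 1)) against the mean of the 4 libraries (scaled TPM, log axis) for 14186 transcripts, 1 point each. The 360 orange and 365 blue points differ 2-fold or more without overlap between the groups. Beyond 16-fold there are 12 orange and 16 blue points.

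A smaller set had an interval that lay wholly beyond 2-fold before adjustment. It held 32 transcripts higher without shade, in 25 components, and 31 lower, in 29 components. Control trees, which compete for light in unthinned stands, were not on 1 side in this set. Among the 32 higher transcripts the control mean lay between the treatments in 18, reached or passed the unshaded mean in 12 and was nearer to the shaded mean in 7. Over all transcripts with a positive difference it lay between in 29.5%, above both in 33.1% and nearer to the shaded mean in 50.3%. Among the 31 lower ones it lay between in 25 and was nearer to the shaded mean in 20, against 26.8% and 44.1% of all with a negative difference. A control mean lies between more easily where the gap is wide, and this set was chosen for wide gaps. Among the 360 higher transcripts at 2-fold or more without overlap it lay between in 67.8% and nearer to the shaded mean in 54.4%. Among the 365 lower ones these shares were 65.5% and 52.6%. Control libraries also enter the spread that chose the smaller set.

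The pair of transcripts with the smallest unadjusted p belonged to 1 component and were nearly absent under the mesh. TRINITY_DN2914_c0_g1 was at 43.1 and 68.45 scaled TPM in unshaded trees, against 0.465 and 0.627 in shaded ones. Both control August libraries, at 89.67 and 48.11, stood with the unshaded trees. The difference was 5.16 log2 units (SE 0.36, 95% interval 4.27 to 6.06, limma adjusted p = 0.156). TRINITY_DN2914_c0_g2 was at 55.99 and 74.18 in unshaded trees, against 0 and 1.236 in shaded ones, a difference of 5.45 (SE 0.46, limma adjusted p = 0.164). Their May values spread from 0.389 to 438.3 and did not follow the treatment. In May TRINITY_DN2914_c0_g1 was at 26.84 and 0.809 in unshaded trees, against 325.4 and 7.386 in shaded ones. Over the alternatives its adjusted p ran from 0.0393, without the trend, to 0.754, in the fit to 12 libraries (limma).

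Another component, TRINITY_DN41976_c0, held a difference with closely matching replicates. TRINITY_DN41976_c0_g1 was at 69.66 and 70.96 scaled TPM in unshaded trees, against 16.83 and 17.78 in shaded ones. TRINITY_DN41976_c0_g2 repeated the pattern, at 71.48 and 69.14 in unshaded trees, against 17.75 and 18.16 in shaded ones. In both transcripts the groups stood far apart and the replicates close together. The shaded August libraries were the lowest of all 12: the control August libraries were at 92.75 and 76.29 for TRINITY_DN41976_c0_g1, and the 6 May libraries between 58.53 and 124.5. The differences were 1.96 and 1.91 log2 units (SE 0.18 and 0.19, limma adjusted p = 0.164 for both). These transcripts came nearest to a call in the fit to 12 libraries (limma adjusted p = 0.059 for both), and over the alternatives the adjusted p of TRINITY_DN41976_c0_g1 ran from 0.059 to 0.518. Being of 1 component with near-identical values, they may share reads and are not independent. These 2 and the next 3 were picked with their values in view, outside the rule for naming.

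In the other direction, TRINITY_DN1435_c0_g1 was at 0.801 and 0.248 scaled TPM in unshaded trees, against 19.02 and 29.9 in shaded ones. Control August libraries stood near the shaded level, at 20.84 and 14.82. The difference was -4.05 log2 units (SE 0.38, limma adjusted p = 0.164), and TRINITY_DN1435_c0_g2 differed by -4.07. Thinning May replicate 1 was also near 0 for TRINITY_DN1435_c0_g1, at 0.342, while the other 5 May libraries lay between 18.24 and 26.59. TRINITY_DN9813_c0_g2 had the same order, at 0.410 and 0 in unshaded trees, against 21.67 and 16.86 in shaded ones, with 9.677 and 12.29 in control August libraries. Its difference was -4.08 log2 units (SE 0.47, limma adjusted p = 0.265), and without the trend it was called (0.0283).

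By the rule for naming, the 8 transcripts highest and the 8 lowest without shade were taken from those with no overlap and a mean of 50 or more in the higher group. That left 904 higher and 714 lower to choose from, of which 143 and 126 differed 2-fold or more. Among the 8 higher ones, besides TRINITY_DN2914_c0_g1 and TRINITY_DN2914_c0_g2, stood TRINITY_DN9249_c0_g3. It was at 62.5 and 46.01 scaled TPM in unshaded trees, against 0.381 and 0.539 in shaded ones. Its control August libraries were split, at 0.147 and 39.33, so that 1 control tree library matched the shaded and the other nearly the unshaded level. The difference of 5.23 log2 units therefore had an SE of 1.56 (limma adjusted p = 0.384), and it was called only without control August replicate 1 (0.0485).

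Control libraries split the other way round in 3 further transcripts of that list. TRINITY_DN8873_c1_g1 was at 246.7 and 610.6 in unshaded trees, against 25.97 and 6.801 in shaded ones, and at 447 and 0 in the control August libraries. TRINITY_DN32745_c0_g2 was at 221.7 and 559.2 in unshaded trees, against 21.99 and 11.95 in shaded ones, with 407.2 and 4.177 in control. TRINITY_DN3060_c0_g2 was at 70 and 209.2 in unshaded trees, against 6.493 and 2.8 in shaded ones, with 157.1 and 2.335 in control. In each, control replicate 1 stood with the unshaded trees and control replicate 2 below the shaded ones. Their differences of 4.36 to 4.75 log2 units had SEs of 1.74 to 2.70 (limma adjusted p from 0.438 to 0.588). The remaining 2, TRINITY_DN3279_c0_g3 and TRINITY_DN10076_c0_g2, differed by 3.8 (SE 0.65) and 3.56 log2 units (SE 1.12), and their control August libraries lay within 33.48 to 39.32 and 93.64 to 95.14, between the groups. Without 1 library the difference of TRINITY_DN10076_c0_g2 lay between 1.70 and 5.42 log2 units.

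Of the 8 lower transcripts, 2 had replicates close together in both treatments. TRINITY_DN114_c1_g1 was at 42.63 and 37.29 scaled TPM in unshaded trees, against 250 and 275.1 in shaded ones, a difference of -2.69 log2 units (SE 0.51, limma adjusted p = 0.294). The unshaded August libraries were the lowest of the 12. TRINITY_DN26202_c0_g2 was at 0.951 and 0.694 in unshaded trees, against 57.13 and 56.54 in shaded ones. Here too the control August libraries were split, at 0 and 39.91, and the difference of -4.99 log2 units (SE 1.61, limma adjusted p = 0.385) was called only without control August replicate 1 (0.0379). TRINITY_DN323_c0_g1 was at 4.287 and 0.762 in unshaded trees, against 28.06 and 72.36 in shaded ones. All control and May libraries of that transcript were below the shaded August ones, at 10.37 or less, and the difference was -3.92 (SE 0.65, limma adjusted p = 0.280).

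In 3 others of the 8 the unshaded replicates lay many-fold apart. TRINITY_DN2293_c1_g1 was at 715.1 and 12.83 in unshaded trees, against 4965 and 960.5 in shaded ones, so that 1 unshaded library stood near the lower shaded one. TRINITY_DN28751_c0_g2, at 67.51 and 1.645 in unshaded trees, against 171.2 and 79.29 in shaded ones, had the same low library, unshaded replicate 2. TRINITY_DN15726_c0_g1 was at 547.8 and 30.15 in unshaded trees, against 1730 and 2694 in shaded ones. It was low in all May libraries, from 0.908 to 6.039. The intervals of TRINITY_DN2293_c1_g1 and TRINITY_DN28751_c0_g2 reached past 0 even before adjustment, at -9.05 to 0.14 and -6.80 to 0.55 log2 units. The last of the 8, TRINITY_DN4296_c0_g2 and TRINITY_DN2742_c0_g1, differed by -3.11 (SE 0.61) and -2.70 log2 units (SE 0.67). Without 1 library the differences lay between -7.30 and -1.61 log2 units for TRINITY_DN2293_c1_g1, -5.47 and -0.78 for TRINITY_DN28751_c0_g2 and -6.12 and -1.98 for TRINITY_DN15726_c0_g1.

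**Figure D4:**
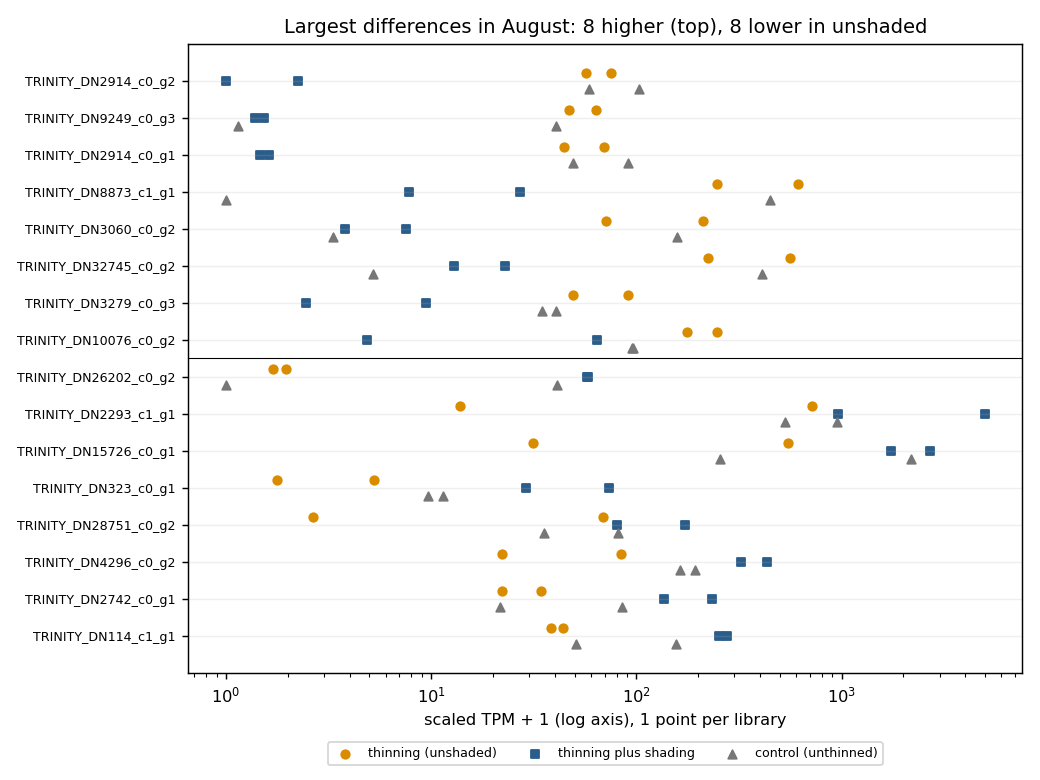
Scaled TPM + 1 (log axis) of the 8 transcripts highest (above the line) and the 8 lowest (below it) in unshaded against shaded trees, 1 point per August library, 2 per group. Orange and blue points do not overlap within a row, which the choice of these transcripts fixes, while the grey control points lie on both sides of the gap in several rows, such as TRINITY_DN9249_c0_g3 (0.147 and 39.33 scaled TPM).

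Transcripts far apart between the treatments were also far apart between replicates elsewhere. Of the 123 transcripts at 4-fold or more without overlap, 33 (26.8%) differed 4-fold or more between the 2 control August libraries, against 1.90% of all 14186. The share was 48.8% between the unshaded May replicates, against 11% of all, 28.5% between the shaded May replicates, against 2.03%, and 30.9% between the control May replicates, against 2.90%. In 51 of the 123 (41.5%), 1 control August library lay nearer to the shaded mean and the other nearer to the unshaded mean, against 28.9% of all. Both lay nearer to the shaded mean in 30 (24.4%, against 32.7% of all) and nearer to the unshaded mean in 42 (34.1%, against 38.4%). The 123 had a median level of 14.5 scaled TPM over the 4 libraries, against 21.4 for all tested. The part of level or of differences between single trees in these gaps was not tested.

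**Figure D5:**
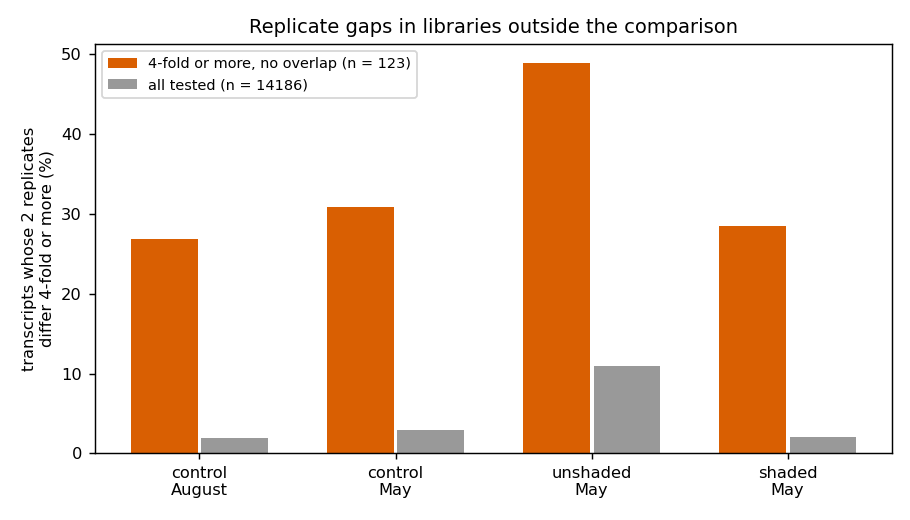
Percent of transcripts whose 2 replicates differed 4-fold or more, in 4 groups of libraries outside the comparison. Orange bars are the 123 transcripts that differed 4-fold or more without overlap between unshaded and shaded trees in August, and grey bars all 14186 tested. Orange bars stand between 26.8% and 48.8%, grey bars between 1.90% and 11%.

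For some of the most abundant needle transcripts a 2-fold difference lay outside the interval. TRINITY_DN7298_c0_g1, the most abundant, was at 9565 and 10280 scaled TPM in unshaded trees, against 9064 and 7608 in shaded ones. The groups did not overlap, but the difference was only 0.26 log2 units (95% interval -0.16 to 0.67), and for TRINITY_DN7298_c0_g2 it was 0.25, while after quantile normalization the 2 values were 0 and -0.32. TRINITY_DN1564_c0_g1, at 3795 and 3683 in unshaded trees, against 3564 and 3105 in shaded ones, differed by 0.17 (-0.25 to 0.58). TRINITY_DN1522_c0_g1, at 120.1 and 116.4 in unshaded trees, against 90.43 and 96.88 in shaded ones, differed by 0.33 (-0.09 to 0.76). With TRINITY_DN7298_c0_g2 these are the 4 transcripts of narrowest interval at a mean of 100 or more. Their intervals all ended below 2-fold on either side, which choosing the narrowest makes likely. TRINITY_DN1522_c0_g1, with a mean of 105.94 over the 4 libraries, was not among the most abundant. TRINITY_DN12_c0_g3 and TRINITY_DN4563_c0_g1 each differed by 0.28 log2 units, and their intervals reached just past 2-fold, to 1.04.

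Other abundant transcripts left much more room. TRINITY_DN2293_c0_g2 was at 8888 and 1626 scaled TPM in unshaded trees, against 2560 and 5413 in shaded ones. The groups overlapped, and the interval ran from -2.04 to 2.1 log2 units around a difference of 0.03. TRINITY_DN2293_c0_g1 was at 6749 and 1218 in unshaded trees, against 4149 and 4231 in shaded ones, with a difference of -0.55 (-2.47 to 1.38). Of the 4 libraries, unshaded replicate 2 was the lowest in all 3 named TRINITY_DN2293 transcripts, and the order of the rest differed. TRINITY_DN4_c0_g1, at 2641 and 3393 in unshaded trees, against 3956 and 2318 in shaded ones, differed by -0.02 (-1.07 to 1.03), a sign that turned without the library factor and after quantile normalization.

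Transcripts of 1 component mostly lay to the same side, as copies or fragments that share reads would in any case. Of 4333 components with 2 or more tested transcripts, 3598 had differences of 1 sign, and all members lay without overlap in 739 on the higher side and in 562 on the lower side. With 3 or more members there were 10 higher and 26 lower of 403. Among single transcripts tested, 21.1% lay without overlap on the higher side and 20.6% on the lower side. In TRINITY_DN4581_c0, TRINITY_DN4581_c0_g2 was at 306.9 and 129 scaled TPM in unshaded trees, against 31.74 and 18.09 in shaded ones. Control August libraries, at 352.3 and 223.4, stood with the unshaded trees. The difference was 3.00 log2 units (SE 0.51, limma adjusted p = 0.280), with 3.35 and 2.84 in the other members. TRINITY_DN318_c0 was higher without shade in its 3 members by 1.46 to 1.62 log2 units, and its control libraries lay on the shaded side: TRINITY_DN318_c0_g2 was at 200.3 and 100.7 in unshaded trees, 37.25 and 63 in shaded and 18.47 and 11.83 in control trees. In TRINITY_DN890_c0, TRINITY_DN890_c0_g2 was at 3.812 and 2.604 in unshaded trees, against 18.38 and 18.57 in shaded ones, a difference of -2.23 (SE 0.30, limma adjusted p = 0.280). TRINITY_DN890_c0_g4 differed by -2.21, but TRINITY_DN890_c0_g3 by -0.41. The 3 members of TRINITY_DN13693_c0 differed by -1.63 to -1.18 log2 units.

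A few transcripts were listed at 0 in both libraries of 1 treatment and at 10 or more in both of the other. There were 2 listed at 0 in shaded and 6 in unshaded trees. The transcripts named in this paragraph also lie outside the rule for naming and were picked with their values in view. TRINITY_DN21053_c0_g3 was at 25.94 and 14.64 in unshaded trees and listed at 0 in both shaded libraries, with 21.42 and 18.15 in control August libraries. TRINITY_DN27166_c0_g3 was listed at 0 in both unshaded libraries, with 16.78 and 13.72 in shaded ones, and at 0 in all 4 control libraries of both months. Its difference was -4.02 log2 units with an interval of -11.7 to 3.66 (limma adjusted p = 0.686, and 0.01 to 0.938 over the alternatives). TRINITY_DN27166_c0_g3 had close August replicates, and its SE was 3.10 in this fit, against 0.18 without the trend on level. It was among the 4 transcripts called with the filter over 12 libraries (limma adjusted p = 0.0303), together with TRINITY_DN8597_c0_g1, TRINITY_DN8597_c0_g2 and TRINITY_DN49384_c0_g1, the last of which stayed under the filter used here. TRINITY_DN8597_c0_g2 was at 34.06 and 44.72 in unshaded trees, against 0.623 and 0.397 in shaded ones, and at 0.129 or less in the 4 control libraries of both months. Its unadjusted interval ran from 2.03 to 7.43 log2 units (limma adjusted p = 0.327, and 0.01 to 0.791 over the alternatives). Its SE was 1.09, against 0.21 without the trend. The width of both intervals thus depended on how the spread was moderated.

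Some transcripts set 1 of these August groups apart from all other 10 libraries. At 2-fold or more between the treatments, both unshaded libraries were above all others in 121 transcripts (0.853%) and below them in 40 (0.282%). Both shaded libraries were above all others in 89 (0.627%) and below them in 40 (0.282%). Without a limit on size the 4 counts were 569 (4.01%), 364 (2.57%), 576 (4.06%) and 407 (2.87%). At 4-fold or more they were 14, 7, 13 and 7. The members of TRINITY_DN8597_c0, TRINITY_DN114_c1_g1, TRINITY_DN323_c0_g1 and TRINITY_DN2914_c0_g1, described above, are among these transcripts. TRINITY_DN2914_c0_g1 met the rule by a small gap near 0. Its shaded August libraries were at 0.465 and 0.627, against 0.809 in unshaded May replicate 2. TRINITY_DN2914_c0_g2 did not meet it, at 1.236 in shaded August replicate 2, against 0.389 in that May library.

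The transcripts that stood apart in August were on either side in May. The May libraries are not those of August, but whether they came from the same trees is not given. One of them stood apart: thinning May replicate 1 listed 208032 transcripts above 0, against 81710 to 117855 in the other 11 libraries. Of the 360 transcripts higher without shade in August, 128 (35.6%) were higher without shade in May too, against 32.0% of all transcripts with a positive August difference. Of the 365 lower ones, 191 (52.3%) were lower in May too, against 47.1%. Without thinning May replicate 1 these shares were 33.1%, against 31.5% of all, and 40.8%, against 43.6%. Without overlap in May as well, 40 of the 360 were on the same side and 57 on the opposite one, against 200 and 1135 of the 2998 higher transcripts without overlap in August. Of the 365, 72 were on the same side and 36 on the opposite one, against 452 and 377 of 2927. The median May difference was -0.26 log2 units in the 360 and -0.086 in the 365, against medians of 1.40 and -1.29 in August. When the light difference in August was set against that in May in a fit to all 12 libraries, 0 transcripts were called (0%, limma, smallest adjusted p 0.192), with 1516 (10.7%) at an unadjusted p under 0.05. Without thinning May replicate 1 there were 1730 calls, with a single unshaded May library, whose spread is then assumed to be that of the other groups. Replicates of August had a root mean square SD of 0.466 log2 units in unshaded and 0.478 in shaded trees, against 0.949 and 0.470 in the May libraries of the same treatments, so unshaded May trees are the least certain part of this comparison.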

How the data were processed

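The deposited values are a signal whose unit was read from the numbers: once every column has a common total, 99.34% or more of its nonzero entries are multiples of 0.01 to within 0.1 step, so the authors' values are TPM with 2 decimals times 1 factor per library. No reads can be recovered from TPM. Trimmomatic, RSEM and DESeq2 appear in the submitters' processing notes with no version. The assembler, the scaling step and any filters were not given in the sources used here. Per the labels, poly(A) RNA with an integrity number above 7 was sequenced as paired reads of 150 bp.

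Columns were matched to samples by description. Transcripts at 10 or more in at least 2 of the 4 libraries were tested on log2(value + 1) with limma 3.58.1 in R 4.3.3 (intensity trend, two-sided, Benjamini-Hochberg). The spread came from the 6 August libraries, since replicates lay farther apart in unshaded May trees. Log2 differences understate those of low transcripts. The fit was tested on simulated data with normal noise and the same spread in every group, which does not cover control libraries that split as described above. Alternatives were other libraries, pseudocounts, filters, scalings, no trend, a replicate block and each library left out. Named were called transcripts, the 8 largest differences per direction without overlap, the 8 most abundant, the 4 of narrowest interval and up to 4 components. The comparison, rule and tests were chosen with earlier results of these data known. No gene list could be applied.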

Additional observations from a re-analysis of the deposited data

Results flagged for a closer look

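In 8 of 59 transcripts followed, every unshaded August library lay on one side of both shaded ones and every unshaded May library on the other side. The difference between the months was tested for each as an interaction in a fit to all 12 libraries, and none passed. The August minus May value of the unshaded minus shaded difference was 2.36 log2 units for TRINITY_DN41976_c0_g1 and 2.29 for TRINITY_DN41976_c0_g2 (limma adjusted p = 0.192 for both). With a filter of 50 both were called (limma adjusted p = 0.038). TRINITY_DN41976_c0_g1 was at 75.96 and 58.53 scaled TPM in unshaded May trees, against 90.25 and 86.68 in shaded ones. The value was 3.47 for TRINITY_DN16564_c0_g2 (limma adjusted p = 0.360), which was also picked with its values in view, outside the rule for naming. For TRINITY_DN13693_c0_g1 the August minus May value of the unshaded minus shaded difference was -3.52 log2 units (limma adjusted p = 0.360), and for TRINITY_DN13693_c0_g4 it was -2.15 (0.360). TRINITY_DN13693_c0_g1 was at 14.41 and 24.3 scaled TPM in unshaded August trees, against 63 and 57.37 in shaded ones, and in May at 47.68 and 45.54, against 5.867 and 22.89. For the abundant TRINITY_DN7298_c0_g1 and TRINITY_DN7298_c0_g2 the values were 0.996 and 0.969 (limma adjusted p = 0.459 and 0.474), and for TRINITY_DN1564_c0_g1 the value was 0.557 (0.544). Many of the 59 were chosen because their libraries did not overlap in August. Among all 14186 transcripts, 5925 had no overlap in August. Of those, 1512 had this opposite pattern without overlap in May as well, and 652 the same direction in both months. The 8 of 59 thus do not set the followed transcripts apart.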

How the results depend on the processing

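The count of calls in August stayed at 0 under the fits to 4 and to 12 libraries, both pseudocounts, the filter of 50, no filter, no library factor, quantile normalization and the replicate block. It was 4 with the filter over all 12 libraries and 7 without the trend: TRINITY_DN21053_c0_g3, TRINITY_DN27166_c0_g3, TRINITY_DN2914_c0_g1, TRINITY_DN8597_c0_g1, TRINITY_DN8597_c0_g2, TRINITY_DN9499_c2_g1 and TRINITY_DN9813_c0_g2. Leaving out 1 library gave 0 to 2. The cause was not tested. The share of intervals within 2-fold was 58.7% in the fit to 4 libraries, with a pseudocount of 0.5 and after quantile normalization, 47.1% with 12 libraries, 76.8% with a pseudocount of 8, 52.9% with a filter of 50, 42.2% with no filter, 53.2% with the filter over 12 libraries, 58.2% with the replicate block, and 42.1% to 58.9% without 1 library. The median half-width ran from 0.455 to 0.797. The count at 2-fold or more without overlap was 356 with a pseudocount of 8, 224 with a filter of 50, 5260 with no filter, 1156 with the filter over 12 libraries and 725 to 1151 without 1 library. It stayed at 725 without a control library, as it must, since the count uses only unshaded and shaded libraries. The higher counts came from leaving out an unshaded or shaded library. That leaves 1 library in the group, so no overlap is easier to reach and the measure is not the same.

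Whether replicate numbers pair the libraries is not given in the labels. The deviations of replicates correlated at -0.258 between unshaded and shaded, 0.236 between unshaded and control and -0.234 between shaded and control trees. The replicate block gave 0 calls, but so did the main fit, so that count cannot decide on pairing. With the shaded numbers crossed, an alternative chosen after seeing the data, there were 0 calls. At an unadjusted p under 0.05 (limma) it gave 1980 transcripts, against 1555 in the main fit. The median half-width was 0.547, against 0.592, and 65.1% of intervals lay within 2-fold, against 60.4%. The count of calls between August and May was 4 with a filter of 50 (TRINITY_DN41976_c0_g1, TRINITY_DN41976_c0_g2, TRINITY_DN464_c0_g1 and TRINITY_DN5193_c0_g1) and 0 to 1730 without 1 library. It was 0 with either pseudocount, without the library factor, after quantile normalization and with the replicate block.

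Of 59 transcripts followed, 52 kept their sign in all alternatives and 50 were never called. Many of the 59 were chosen for having no overlap in August. For those, neither another pseudocount nor leaving out 1 library can turn the sign, so the count of 52 cannot measure how stable the signs are. The difference of TRINITY_DN7298_c0_g1 was 0 after quantile normalization. Signs turned for TRINITY_DN4_c0_g1 (0.0041 without the library factor, 0.15 after quantile normalization and -0.40 to 0.37 without 1 library), TRINITY_DN7298_c0_g2 (-0.32 after quantile normalization), and, without 1 library, TRINITY_DN2293_c0_g2 (-1.20 to 1.26), TRINITY_DN2293_c0_g1 (-1.78 to 0.69), TRINITY_DN12_c0_g3 (-0.030 to 0.59) and TRINITY_DN4563_c0_g1 (-0.029 to 0.59). Depth is unknown and sets no stated limit.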

Other observations

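Several transcripts were either abundant or near 0 in single libraries, with the same division of the 12 libraries in each. TRINITY_DN26202_c0_g2, TRINITY_DN2371_c2_g1, TRINITY_DN2747_c1_g1 and TRINITY_DN729_c0_g2 were high in both shaded August libraries, shaded May replicate 2, control August replicate 2 and control May replicate 1, and at or near 0 in both unshaded August libraries, unshaded May replicate 1, shaded May replicate 1, control August replicate 1 and control May replicate 2. TRINITY_DN2371_c2_g1, for instance, was at 0 in both unshaded August libraries, against 21.68 and 46.14 in shaded ones, and at 30 and 20.14 in the 2 high control libraries. Unshaded May replicate 2 lay between, at 3.193. TRINITY_DN8873_c1_g1, TRINITY_DN3060_c0_g2 and TRINITY_DN32745_c0_g2 had nearly the reverse division: high in both unshaded August libraries, unshaded May replicate 1, control August replicate 1 and control May replicate 2. TRINITY_DN8873_c1_g1 was at 307.9 in control May replicate 2 and 3.844 in control May replicate 1. In these 7 transcripts both control groups thus held 1 library of each kind. They were picked with their values in view, and whether the libraries came from the same or different trees is not given.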
